A study of Mus musculus with 9 samples.

Results

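Chromatin accessibility was described at 10 genes of the G1 and p53 circuits: the cyclin-dependent kinase (CDK) inhibitors Cdkn1a, Cdkn1b, Cdkn2a, Cdkn2b and Cdkn2c, the cyclin gene Ccnd1, the retinoblastoma family genes Rb1 and Rbl1, and the p53 targets Sesn1 and Ddb2. Their members were the 118 peaks, of 146734 in all, whose centre lay in the gene body or within 30 kb of either end. The values came from ATAC-seq, in which a transposase cuts open chromatin so that reads pile up where DNA is accessible. The cells were D2A1-d, a mouse breast carcinoma line, in 3 groups of 3 libraries. The shMed4 #1 and shMed4 #4 groups carried different short hairpin RNAs against Med4, a subunit of the Mediator complex, and are labelled Med4 Knockdown. The NTC group carried a non-targeting control hairpin and is labelled WT. All cells were labelled untreated. The libraries of a group are labelled as biological replicates, but nothing in the labels says that they came from separate transductions. The p-values therefore measure only the spread between these libraries, which may not include that between transductions.

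In G1, D-type cyclins such as cyclin D1 (Ccnd1) activate CDK4 and CDK6, which phosphorylate the retinoblastoma proteins and free E2F factors to switch on replication genes. The INK4 proteins of Cdkn2a, Cdkn2b and Cdkn2c block CDK4 and CDK6, and p21 (Cdkn1a) and p27 (Cdkn1b) act on cyclin-CDK complexes. Cdkn2a also encodes ARF, which restrains Mdm2 and so stabilises p53. Cdkn1a, Sesn1 and Ddb2 are classical targets of p53, and the whole circuit is studied in cancer cells that stop dividing.

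With the smallest step between values of a column taken as 1 read, libraries held 44.8 to 98.9 M reads in peaks. On that reading, no pair was alike enough to be counted as 1 sample. The hairpins act on RNA, so accessibility does not check the knockdown. The peak at the Med4 start held 424, 467 and 462 normalised reads with shMed4 #1, 455, 459 and 494 with shMed4 #4, and 559, 558 and 516 in NTC. Of the carcinoma markers Krt8, Krt18, Epcam and Cdh1, only Krt18 had a peak within 1 kb of a start or end, and it rose with both hairpins together (log2 fold 1.33). The mesenchymal gene Vim fell at its start (-0.43), and Col1a1 (0.01) and Fn1 (-0.03) were not called at a gene end. The leukocyte genes Ptprc, Cd3e and Itgam had no such peak. Of the endothelial genes Pecam1, Cdh5 and Tek, only Cdh5 had one, which rose (0.55). The part of these shifts in the results was not tested.

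Promoters of the members whose starts bear on the results are shown as the 250 bases upstream of the start, 5′ to 3′ on the gene's strand (RefSeq, GRCm38.p6). Capitals mark matches, on either strand, to the E2F motif TTTCGCGC, to CCAAT, or to the p53 half-site. Cdkn1a is shown at 2 starts because only the second lay in a peak, and Sesn1 at its second start for its p53 half-site. Rbl1 is shown for its E2F motif and Cdkn1b for its CCAAT boxes.
Cdkn1a, first start, chr17:29090729-29090978: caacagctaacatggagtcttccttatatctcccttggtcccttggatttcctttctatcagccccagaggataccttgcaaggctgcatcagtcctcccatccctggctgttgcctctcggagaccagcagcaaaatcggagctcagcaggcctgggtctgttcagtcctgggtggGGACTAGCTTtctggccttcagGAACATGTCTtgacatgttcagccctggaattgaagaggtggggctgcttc
Cdkn1a, second start, chr17:29093519-29093768: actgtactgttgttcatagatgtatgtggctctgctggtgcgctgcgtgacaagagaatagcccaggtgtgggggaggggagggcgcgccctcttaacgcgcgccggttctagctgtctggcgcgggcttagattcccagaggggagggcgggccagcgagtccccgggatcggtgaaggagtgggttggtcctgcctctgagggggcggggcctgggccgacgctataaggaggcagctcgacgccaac
Rbl1, chr2:157204535-157204784, minus strand: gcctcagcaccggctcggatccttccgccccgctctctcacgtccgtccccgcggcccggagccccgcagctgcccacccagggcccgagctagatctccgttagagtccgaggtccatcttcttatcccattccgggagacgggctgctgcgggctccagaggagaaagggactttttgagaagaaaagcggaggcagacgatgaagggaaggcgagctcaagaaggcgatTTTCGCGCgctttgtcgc
Cdkn1b, chr6:134920151-134920400: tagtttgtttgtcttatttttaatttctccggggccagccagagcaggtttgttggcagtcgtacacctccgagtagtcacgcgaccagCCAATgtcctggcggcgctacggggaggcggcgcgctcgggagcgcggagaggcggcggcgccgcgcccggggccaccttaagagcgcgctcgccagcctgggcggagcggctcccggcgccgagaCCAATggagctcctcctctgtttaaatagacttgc
Sesn1, second start, chr10:41887189-41887438: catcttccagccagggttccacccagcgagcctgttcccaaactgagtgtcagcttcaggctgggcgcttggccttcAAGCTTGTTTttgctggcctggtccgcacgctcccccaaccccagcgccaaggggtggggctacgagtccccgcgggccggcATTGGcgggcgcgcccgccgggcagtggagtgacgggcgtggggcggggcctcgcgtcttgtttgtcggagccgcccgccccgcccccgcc

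The E2F motif lay 11 bases upstream of the Rbl1 start, and 0.256% of 32851 promoters of the same length held it. The first Cdkn1a start had p53 half-sites at 2 positions and the second Sesn1 start at 1, against 7.13% of promoters with any match. Cdkn1b had 2 CCAAT boxes, a motif found in 33.8% of promoters. These matches describe letters in the windows and were not tested for binding.

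Accessibility around the 10 genes was lower in Med4 knockdown cells more often than higher. Of the 118 peaks, 12 rose with both hairpins against NTC, 57 fell and 49 were not called, and their median on the log2 scale was -0.17. Over all tested peaks 54.1% were called, 27.9% higher and 26.2% lower, and the median was -0.02. For shMed4 #1 the members' counts were 15 higher and 52 lower, where 52.7% of all peaks were called (27.9% higher and 24.9% lower). For shMed4 #4 they were 12 and 54, where 50.4% were called (26.2% and 24.3%). By 2-fold or more, 1 member peak rose and 4 fell with both hairpins, against 5.97% and 0.96% of all peaks. Each hairpin on its own called 7 peaks higher and 34 lower in the same direction, against 17.6% and 13.5% of all peaks. These hairpin comparisons share the NTC libraries. All 6 hairpin libraries lay above all NTC libraries at 7 member peaks (19% of all peaks) and below them at 37 (16.5%), and at 74 the libraries overlapped. The balance depends on scaling. Centred on peaks at gene ends, which raised the median of all peaks by 0.08, 13 rose and 37 fell. Centred on peaks away from gene ends, which lowered it by 0.1, 9 rose and 81 fell, so that members higher made up 26% or 10% of the calls in place of 17.4%. For all peaks the same shares were 64.9% and 36.9%, in place of 51.6%.

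**Figure D1:**
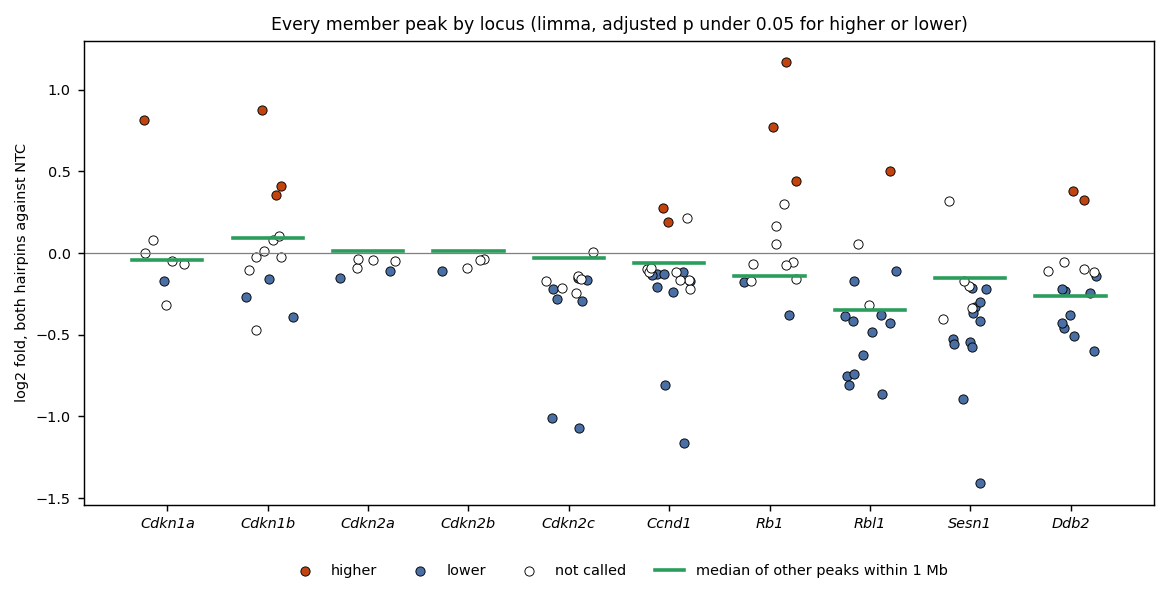
Log2 fold of each member peak, both hairpins against NTC, by locus; each point is 1 peak, filled where limma's adjusted p was under 0.05, and the green bar is the median of other peaks within 1 Mb. Cdkn2a and Cdkn2b share peaks, which appear in both columns. Most filled points at Rbl1, Sesn1, Ddb2, Cdkn2c and Ccnd1 lie below 0, while Rb1 and Cdkn1b have 3 filled points above 0 each.

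Summed over each window, 1 locus rose (Rb1), 7 fell, and Cdkn1a and Cdkn1b were not called, in a fit over 19066 protein-coding loci of which 29.6% rose and 37.4% fell. With shMed4 #1, 1 locus rose and 6 fell (30.9% and 33% of all loci), and with shMed4 #4 the counts were also 1 and 6 (26.6% and 37.6%). With both hairpins together, the falls of Sesn1, Rbl1, Ddb2 and Cdkn2c kept their direction and call under every alternative run on loci. Centring on peaks within 1 Mb was run on peaks only. It subtracts the median log2 level of those peaks in each library, which can differ from subtracting their median log2 fold. The log2 folds of these loci were -0.34, -0.26, -0.22 and -0.2, and the medians of other peaks within 1 Mb were -0.15, -0.35, -0.26 and -0.03. Without NTC replicate 3, 5 loci fell. The median over the 10 loci was -0.1, against -0.02 over all loci.

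**Figure D2:**
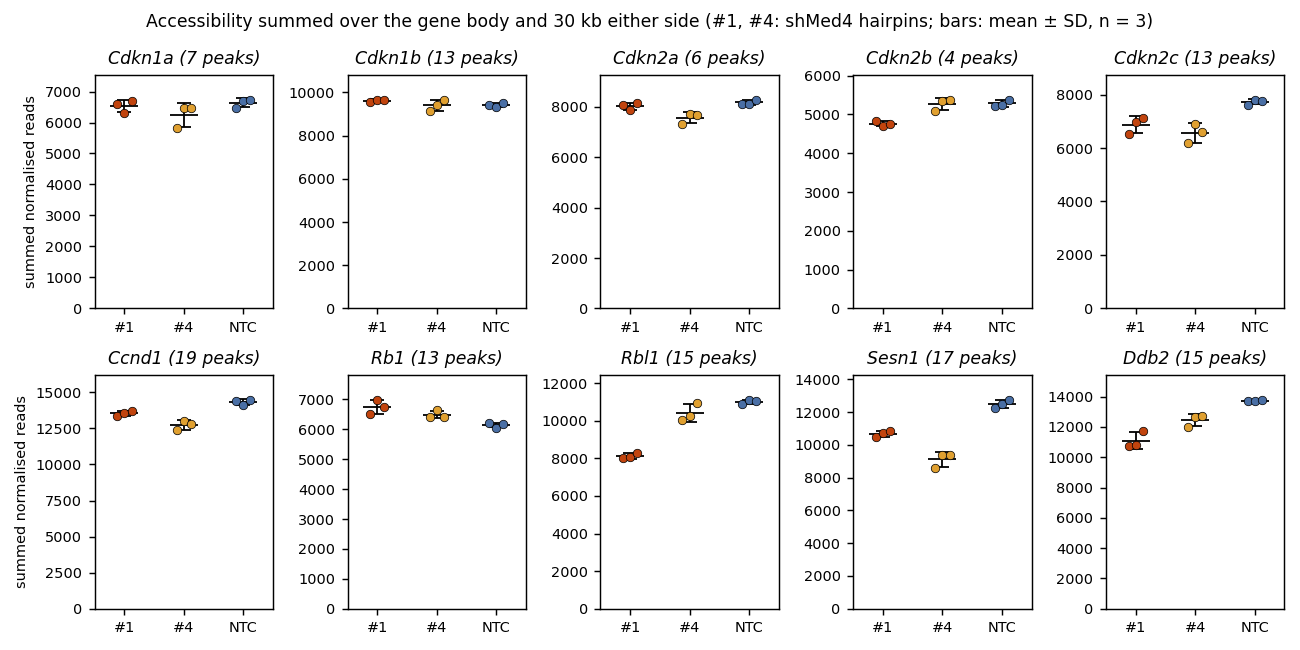
Normalised reads summed over the peaks of each locus (y axis, from 0) in the shMed4 #1, shMed4 #4 and NTC libraries; points are libraries and bars are the mean ± SD (n = 3). The Sesn1, Ddb2, Cdkn2c and Ccnd1 sums lie below NTC in all 6 hairpin libraries, the Rb1 sums lie above it, and Rbl1 stands apart with shMed4 #1.

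Among the CDK inhibitors, Cdkn2c, which encodes the INK4 protein p18, was the one whose locus fell with both hairpins by more than 0.1 on the log2 scale. Its 13 peaks (gene at chromosome 4, 109660876 to 109666756) summed to 6508, 6982 and 7108 normalised reads with shMed4 #1, 6175, 6908 and 6616 with shMed4 #4, and 7619, 7810 and 7750 in NTC. All 6 hairpin libraries were below NTC, and the locus fell by 0.2 on the log2 scale (SE 0.03, limma adjusted p = 3.8e-05), while the median of peaks within 1 Mb was -0.03. No Cdkn2c peak rose and 7 fell.

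Both of the strongest falls at Cdkn2c lay outside the gene. The one at higher coordinates lies past a peak at an end of Faf1 and cannot be given to Cdkn2c alone. The peak at 109687875 to 109688376 held 96.0, 85.2 and 100.1 normalised reads with shMed4 #1, 95.2, 60.1 and 65.3 with shMed4 #4, and 195, 158 and 170.2 in NTC. No hairpin library overlapped NTC (log2 fold -1.07, SE 0.15, limma adjusted p = 9.1e-08). On the other side of the gene, the peak at 109647252 averaged 57.8 ± 4.71 with shMed4 #1, 48.1 ± 9.53 with shMed4 #4 and 107 ± 17.7 in NTC (SD, n = 3 each, limma log2 fold -1.01). The highest start peak, at 109666619, fell by less (-0.17), and that call was lost without NTC replicate 2 (limma adjusted p = 0.05) or centred on gene ends. The peak at the other start, at 109665115, fell by 0.22 on the log2 scale (limma adjusted p = 0.0015). It was called with shMed4 #1 and with shMed4 #4 (-0.22 each), with all hairpin libraries below NTC. It was not among the named peaks, so the alternatives were not read for it. The highest peak of the window, at 109676020, lies at an end of Faf1 and cannot be given to Cdkn2c alone (-0.15).

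Cdkn1a, the gene of p21, showed no called change over its locus (chromosome 17, 29090979 to 29100722, 7 peaks). It held 6599, 6314 and 6696 normalised reads with shMed4 #1, 5811, 6469 and 6467 with shMed4 #4, and 6473, 6689 and 6739 in NTC, which overlap. The log2 fold was -0.05 (SE 0.03, limma adjusted p = 0.16). It passed the threshold at -0.07 with equal totals and at -0.15 centred away from gene ends, and turned to 0.02 centred on gene ends.

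The open start of Cdkn1a is the second one printed. Its peak at 29093447 to 29093948 held 1533, 1493 and 1626 normalised reads with shMed4 #1, 1257, 1568 and 1676 with shMed4 #4, and 1476, 1546 and 1538 in NTC. The groups overlapped, and the 95% interval of the log2 fold ran from -0.12 to 0.12. The highest peak of the locus, inside the gene at 29095254, fell by 0.17 on the log2 scale (SE 0.05, limma adjusted p = 0.0018), and gave -0.09, not called, when centred on gene ends. The rise at Cdkn1a lay at a distal peak below the gene, at 29063191 to 29063692. It held 237, 235 and 227 normalised reads with shMed4 #1, 337, 313 and 332 with shMed4 #4, and 150.1, 156 and 164 in NTC. Each group was separate from the others, with shMed4 #4 highest (log2 fold 0.57 with #1 and 1.06 with #4).

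Cdkn1b, the gene of p27 (chromosome 6, 134920401 to 134925525), combined gains outside the gene with a fall at its start. Over the 13 peaks its locus held 9536, 9640 and 9669 normalised reads with shMed4 #1, 9140, 9424 and 9645 with shMed4 #4, and 9435, 9305 and 9499 in NTC. The log2 fold was 0.01 (SE 0.02, limma adjusted p = 0.6), and 3 peaks rose and 3 fell. This sum took either sign with the scaling, from -0.09 centred away from gene ends to 0.09 centred on them, both past the threshold.

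Below the gene, the peak at 134917030 to 134917531 held 336, 359 and 320.2 normalised reads with shMed4 #1, 353, 289 and 299.9 with shMed4 #4, and 181, 179.7 and 171 in NTC. The hairpin libraries were all above NTC, with log2 folds of 0.93 and 0.82 (limma adjusted p = 3.6e-10 and 8.3e-09). The start peak, which covers the promoter printed above, averaged 1970 ± 111 with shMed4 #1, 1895 ± 76.4 with shMed4 #4 and 2159 ± 41.6 in NTC (SD, n = 3 each). All hairpin libraries were below NTC there (limma log2 fold -0.16, adjusted p = 0.0026), but the call was lost when values were centred on gene ends (-0.09, limma adjusted p = 0.097). The highest peak of the window, at 134928421, was not called (-0.02). It was called centred away from gene ends (-0.12, limma adjusted p = 0.043) and centred on peaks within 1 Mb (-0.32, limma adjusted p = 1.4e-05). With that regional centring, both hairpins together gave -0.45 at the start peak in place of -0.16, and 0.57 at 134917030 in place of 0.87. The median log2 fold of other peaks within 1 Mb of Cdkn1b was 0.09, which is not what that centring subtracts.

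Cdkn2a and Cdkn2b lie 11.7 kb apart on chromosome 4 (89274473 to 89294619 and 89306289 to 89311032), and all 4 Cdkn2b peaks are also among the 6 of Cdkn2a. The Cdkn2b start and the Cdkn2a start at 89294619 lay in peaks, and the other Cdkn2a start, at 89282192, did not. The Cdkn2a start peak at 89294451 averaged 1366 ± 44.4 normalised reads with shMed4 #1, 1484 ± 105 with shMed4 #4 and 1462 ± 76.4 in NTC. The Cdkn2b start peak at 89310846 averaged 650 ± 21.7, 564 ± 17.2 and 624 ± 16.2 in the same groups (SD, n = 3 each). Neither was called with both hairpins together (limma log2 fold -0.04 each).

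The 2 hairpins differed at this cluster. The Cdkn2b locus held 4835, 4693 and 4754 normalised reads with shMed4 #1, 5094, 5343 and 5369 with shMed4 #4, and 5229, 5240 and 5382 in NTC. It fell with shMed4 #1 (log2 fold -0.15, limma adjusted p = 0.00031) and was not called with shMed4 #4 (0.00, limma adjusted p = 0.91). The Cdkn2a locus held 8080, 7872 and 8140 with shMed4 #1, 7318, 7711 and 7680 with shMed4 #4, and 8125, 8114 and 8288 in NTC. It fell with shMed4 #4 (-0.11, limma adjusted p = 0.0026) and was not called with shMed4 #1 (-0.03, limma adjusted p = 0.44). Which hairpin lowered Cdkn2a depended on the window and the scaling. Within 10 kb it fell with shMed4 #1 (-0.18, limma adjusted p = 0.00019) and not with shMed4 #4 (0.01, limma adjusted p = 0.75), and centred on gene ends the shMed4 #4 value was -0.02 (limma adjusted p = 0.66). The peaks at 89254741 and 89257640 lie below the gene beyond 10 kb, so they count in the 30 kb window only. They averaged 991.4 and 2278.5 normalised reads with shMed4 #1, 589.2 and 1711.5 with shMed4 #4, and 848.4 and 2043.4 in NTC. Cdkn2b with shMed4 #4 passed the threshold at 0.09 centred on gene ends and at -0.11 centred away from them. With both hairpins together, the calls of -0.07 for Cdkn2a and -0.08 for Cdkn2b were lost without NTC replicate 3, centred on gene ends (0.01 and 0) and with the mean of log2 values over peaks (-0.08 and -0.07). That of Cdkn2a was also lost without shMed4 #1 replicate 2 and in the gene body alone (-0.09).

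A peak below Cdkn2a, at 89254741 to 89255242, moved in opposite directions. It held 976, 1013 and 985 normalised reads with shMed4 #1, 563, 638 and 566 with shMed4 #4, and 806, 854 and 884 in NTC. Every shMed4 #1 library was above NTC and every shMed4 #4 library below it (log2 folds 0.23 and -0.53, difference between hairpins -0.75, limma adjusted p = 5.5e-12). The highest peak of the cluster, at 89302076 between the genes, averaged 2656 ± 69.6, 3175 ± 91.4 and 3129 ± 72.2 in the shMed4 #1, shMed4 #4 and NTC libraries (SD, n = 3 each). It fell with shMed4 #1 alone among the 2 hairpins (limma log2 fold -0.24 and 0.02, difference 0.26, adjusted p = 2.3e-05). Of the 4 Cdkn2b peaks, all shared with Cdkn2a, it was the 1 called lower with shMed4 #1.

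Ccnd1, the gene of cyclin D1 (chromosome 7, 144929931 to 144939831), had the most peaks, 19, of which 2 rose and 9 fell. The locus summed to 13365, 13543 and 13709 normalised reads with shMed4 #1, 12378, 13039 and 12801 with shMed4 #4, and 14381, 14122 and 14471 in NTC. Every hairpin library was below NTC, and the log2 fold was small at -0.13 (SE 0.02, limma adjusted p = 0.00013). Centred on gene ends it was -0.05 and no longer called (limma adjusted p = 0.072), and peaks within 1 Mb had a median of -0.06.

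The largest fall at Ccnd1 was at a distal peak, at 144906903 to 144907404. It held 124, 115 and 110 normalised reads with shMed4 #1, 83.9, 170.1 and 108 with shMed4 #4, and 283, 251 and 248 in NTC, with no overlap between the hairpin libraries and NTC (log2 fold -1.16, limma adjusted p = 5.6e-09). At 144921616 to 144922117 the hairpins parted. That peak held 309.7, 279 and 276 with shMed4 #1, 109.9, 116 and 127 with shMed4 #4, and 143, 160.2 and 152 in NTC. It rose with shMed4 #1 and fell with shMed4 #4 (log2 folds 0.92 and -0.36, difference -1.29, limma adjusted p = 3.9e-11). The peak at an end of the gene, at 144939552, fell by 0.13 on the log2 scale (limma adjusted p = 0.026), a call lost without NTC replicate 2, NTC replicate 3 or shMed4 #1 replicate 1, centred on gene ends (-0.05) or centred on peaks within 1 Mb (-0.09). The highest peak of the window, at 144914754, lies at an end of LTO1 and was not called (-0.1).

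Rb1, the gene of the retinoblastoma protein (chromosome 14, 73192858 to 73325951), was the 1 locus of the 10 whose sum rose. Of its 13 peaks, 3 rose and 2 fell with both hairpins together, against 27.9% and 26.2% of all peaks. The other 8 were not called, and the median over the 13 was -0.06, so the rise was not shared by most peaks. Its 13 peaks summed to 6502, 6984 and 6748 normalised reads with shMed4 #1, 6425, 6634 and 6419 with shMed4 #4, and 6212, 6061 and 6164 in NTC. All hairpin libraries were above NTC, and the locus rose by 0.11 (SE 0.03, limma adjusted p = 0.0018) while peaks within 1 Mb had a median of -0.14. Centred away from gene ends the fold was 0.01 and not called (limma adjusted p = 0.88). With shMed4 #4 alone (0.08, limma adjusted p = 0.031) the call was also lost without shMed4 #4 replicate 2, NTC replicate 2 or NTC replicate 3. Med4 lies 184 kb beyond the upper end of Rb1.

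The rise at Rb1 was in the gene body and not at its end. The highest peak of the locus, at 73253423 to 73253924, held 2161, 2273 and 2067 normalised reads with shMed4 #1, 1992, 2013 and 1829 with shMed4 #4, and 1599, 1430 and 1516 in NTC (log2 fold 0.44, limma adjusted p = 5e-10). A smaller peak at 73313321 to 73313822 held 171, 182 and 225 with shMed4 #1, 296.7, 329 and 272 with shMed4 #4, and 103, 123 and 91.6 in NTC. The groups were separate at both peaks, and the second rose by 1.17 on the log2 scale, the largest of the 118. The peak at an end of Rb1, at 73325814, averaged 1047 ± 101 with shMed4 #1, 1077 ± 125 with shMed4 #4 and 1195 ± 52.8 in NTC (SD, n = 3 each). Its libraries overlapped, and its fall of 0.18 on the log2 scale (limma adjusted p = 0.015) lost its call without NTC replicate 2, NTC replicate 3 or shMed4 #1 replicate 1, or centred on gene ends (-0.1).

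Rbl1, which encodes the retinoblastoma relative p107 (chromosome 2, 157145893 to 157204534), fell mainly with 1 hairpin. The 15 peaks summed to 8041, 8050 and 8306 normalised reads with shMed4 #1, 10052, 10247 and 10928 with shMed4 #4, and 10883, 11104 and 11028 in NTC. The shMed4 #1 libraries were all below the rest, and shMed4 #4 overlapped NTC. The log2 fold was -0.44 with shMed4 #1 and -0.08 with shMed4 #4, and the difference of 0.36 passed the test (SE 0.03, limma adjusted p = 5.9e-08). The shMed4 #4 call (limma adjusted p = 0.03) was lost without NTC replicate 2, NTC replicate 3, shMed4 #4 replicate 1 or shMed4 #4 replicate 2. Peaks within 1 Mb had medians of -0.48 with shMed4 #1 and -0.22 with shMed4 #4, and those of all chromosome 2 were -0.32 and -0.16. The part of that regional shift in the locus sum was not tested. The window also holds part of Samhd1. The peaks at 157117265, 157118581, 157128026 and 157134066 lie inside Samhd1, and that at 157134987 lies at its end. All of them fell with both hairpins together and cannot be given to Rbl1 alone.

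The Rbl1 start fell with each hairpin. Its peak at 157204582 to 157205083 covers 202 of the 250 promoter bases printed above but not the E2F motif next to the start. It held 623, 612 and 739 normalised reads with shMed4 #1, 606, 742 and 700.3 with shMed4 #4, and 871, 822 and 925 in NTC. No hairpin library reached NTC (log2 folds -0.41 and -0.36, limma adjusted p = 1.8e-05 and 0.00015). Centred on the peaks within 1 Mb, both hairpins together gave -0.19 in place of -0.38 (limma adjusted p = 0.027). The neighbouring peak at 157203785, inside the gene, differed between hairpins. It averaged 383 ± 10.9 with shMed4 #1, 639 ± 26.8 with shMed4 #4 and 645 ± 44.2 in NTC (SD, n = 3 each, limma difference between hairpins 0.74). The lowest p at this locus was at 157137020, between Samhd1 and Rbl1, so that peak cannot be given to Rbl1 alone. It averaged 354 ± 33.1, 504 ± 19.6 and 739 ± 31.6 normalised reads with shMed4 #1, with shMed4 #4 and in NTC (limma log2 fold -0.81). The highest peak, at 157170206, fell by 0.11 on the log2 scale, and centred on its region the value was 0.1 and not called (limma adjusted p = 0.18). Its call was also lost without NTC replicate 2 or NTC replicate 3.

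**Figure D3:**
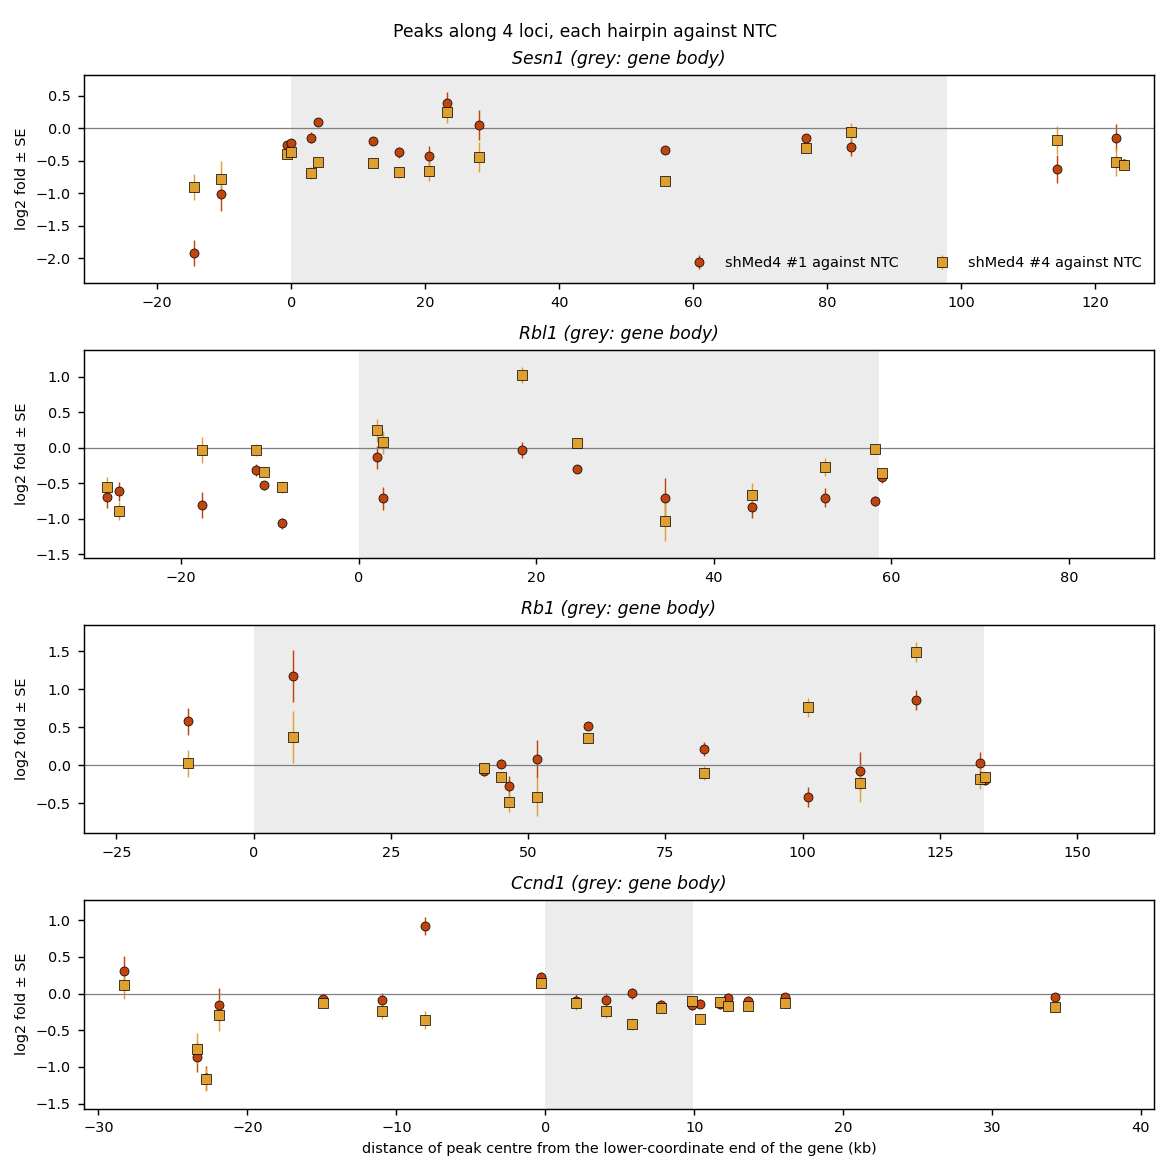
Log2 fold ± SE of each peak (y axis) against its distance in kb from the lower-coordinate end of the gene (x axis) at Sesn1, Rbl1, Rb1 and Ccnd1, for shMed4 #1 (circles) and shMed4 #4 (squares) against NTC; grey marks the gene body. The squares lie below the circles over most of Sesn1 and above them over most of Rbl1, and at 1 peak each of Rb1 and Ccnd1 the hairpins were called in opposite directions from NTC.

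Sesn1, a p53 target whose product restrains mTORC1 signalling, fell most among the 10 loci (chromosome 10, 41810574 to 41908436). Its 17 peaks summed to 10462, 10700 and 10841 normalised reads with shMed4 #1, 8567, 9385 and 9386 with shMed4 #4, and 12278, 12471 and 12744 in NTC. The 3 groups did not overlap, with shMed4 #4 lowest. The log2 folds were -0.23 and -0.46, and the hairpins differed by -0.23 (SE 0.03, limma adjusted p = 2.2e-05). No peak rose with both hairpins together and 12 of 17 fell, while peaks within 1 Mb had a median of -0.15.

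Of the Sesn1 starts, the first carried the highest peak, at 41809732 to 41810233, which also lies at an end of Cep57l1 and cannot be given to either gene. It held 1964, 1905 and 2058 normalised reads with shMed4 #1, 1610, 1867 and 1907 with shMed4 #4, and 2335, 2370 and 2378 in NTC (log2 fold -0.33, limma adjusted p = 3.2e-07). The second start, with the p53 half-site printed above, averaged 1950 ± 69.6, 1753 ± 105 and 2161 ± 170 in the shMed4 #1, shMed4 #4 and NTC libraries (SD, n = 3 each, limma log2 fold -0.22). It was chosen after its values were seen. All hairpin libraries were below NTC at both starts.

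Inside Sesn1, the peak at 41866194 to 41866695 held 829, 887 and 824 normalised reads with shMed4 #1, 618, 605 and 599.7 with shMed4 #4, and 1085, 1024 and 1094 in NTC (log2 fold -0.57, limma adjusted p = 1.2e-11). Outside it, the small peak at 41795853 to 41796354 fell most of the 118, but it lies inside Cep57l1 and cannot be given to Sesn1 alone. It held 55.2, 44.6 and 28.6 with shMed4 #1, 90.0, 79.3 and 86.4 with shMed4 #4, and 169, 150.9 and 160 in NTC, a log2 fold of -1.41 (SE 0.17). Here shMed4 #1 was lower than shMed4 #4, by 1.02 on the log2 scale. At 41814387 it was the reverse, and the peak fell with shMed4 #4 (-0.52) and was not called with shMed4 #1 (0.1), a difference of -0.62 between hairpins (limma adjusted p = 1.5e-10).

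Ddb2, a p53 target of the damage-recognition complex of nucleotide excision repair, fell with both hairpins (chromosome 2, 91211545 to 91237132). Its 15 peaks summed to 10746, 10812 and 11717 normalised reads with shMed4 #1, 11974, 12665 and 12734 with shMed4 #4, and 13708, 13700 and 13784 in NTC. Every hairpin library was below NTC, with log2 folds of -0.31 and -0.14 (limma adjusted p = 2.7e-07 and 0.0014). Centred on gene ends the shMed4 #4 value was -0.05 and not called (limma adjusted p = 0.16). With both hairpins together the locus gave -0.22, and the peaks within 1 Mb had a median of -0.26.

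At an end of Ddb2, the peak at 91236939 to 91237440 held 1521, 1535 and 1680 normalised reads with shMed4 #1, 1577, 1831 and 1829 with shMed4 #4, and 1984, 2293 and 2198 in NTC. The hairpin libraries were all below NTC (log2 fold -0.38, limma adjusted p = 1e-07), and centred on its region the fold was -0.27 (limma adjusted p = 0.00039). A peak beyond the gene, at 91248327, averaged 424 ± 19.4 with shMed4 #1, 423 ± 29.5 with shMed4 #4 and 641 ± 33.4 in NTC (SD, n = 3 each). The 2 hairpins gave the same log2 fold of -0.6 there, and the 95% interval of their difference ran from -0.16 to 0.15. The window also holds ends of Madd, Nr1h3, Acp2, Pacsin3 and Arfgap2, among the 18 of 118 member peaks at a start or end of another gene. One of these, at 91264891 by Arfgap2 and Pacsin3, is the highest of the window (-0.25, and -0.13 and not called when centred on its region).

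**Figure D4:**
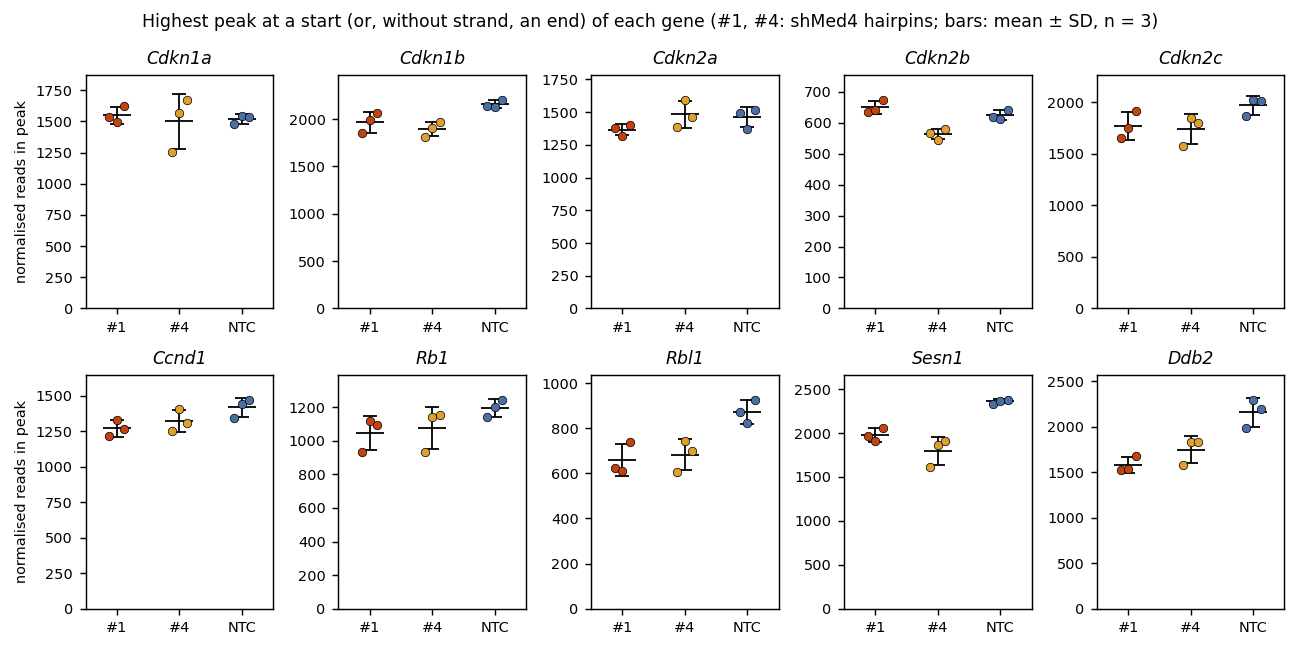
Normalised reads (y axis, from 0) in the highest peak at a start of each gene, or at an end where no strand was given, in the shMed4 #1, shMed4 #4 and NTC libraries; points are libraries and bars are the mean ± SD (n = 3). At Cdkn1b, Rbl1, Sesn1 and Ddb2 all hairpin points lie below NTC, and at Cdkn1a the groups overlap around 1500 reads.

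Each gene was read at its highest start or end peak. No member rose there and 7 of 10 fell with both hairpins together, against 9.98% and 45.7% of genes. With shMed4 #1 none rose and 7 fell (9.59% and 37% of genes), and with shMed4 #4 none rose and 5 fell (9.72% and 44.5%). The falls were between 0.13 (Ccnd1) and 0.38 (Rbl1 and Ddb2) on the log2 scale. With each hairpin on its own, none rose and 5 fell (6.32% and 27.2% of genes), namely Cdkn1b, Cdkn2c, Rbl1, Sesn1 and Ddb2. Cdkn1a, Cdkn2a and Cdkn2b were not called. With both hairpins together, 3 of the 10 fell when centred on gene ends, 9 when centred away from them, 4 without NTC replicate 2, and 5 without NTC replicate 3 or shMed4 #1 replicate 1. Between hairpins, 2 were lower and none higher with shMed4 #4 (16% and 13.9% of genes). The members had 18 peaks in all within 1 kb of such a start or end. With both hairpins together 1 of these rose and 12 fell (27.9% and 26.2% of all peaks).

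The rest of the pathway moved little at gene starts. Of 65 further genes, 57 had a start or end peak, of which 1 rose and 28 fell. Their median was -0.13 on the log2 scale, against -0.11 over all genes, and the 49.1% that fell is near the 45.7% of all genes. Without NTC replicate 3, 18 fell, and without shMed4 #4 replicate 1, 3 rose. Centred on gene ends 4 rose and 14 fell, and centred away from them none rose and 44 fell.

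Of 6 measured cyclin and CDK genes of G1, none rose and 5 fell with both hairpins together, where 9.98% of all genes rose and 45.7% fell. Cdk4 and Cdk6 fell with both hairpins taken singly, as 27.2% of genes did. With shMed4 #1 none rose and 2 fell (9.59% and 37% of genes), and with shMed4 #4 none rose and 6 fell (9.72% and 44.5%). Cdk4 and Cdk6, the partners of cyclin D1, fell by 0.28 each on the log2 scale, and Cdk2, the partner of cyclin E, fell by 0.25. The Cdk2 fall was called with shMed4 #4 (-0.39) and not with shMed4 #1 (-0.11), a difference of -0.28 between hairpins (limma adjusted p = 0.00028). The cyclin E genes Ccne1 and Ccne2 fell by 0.18 and 0.16, and Ccnd3 was not called with both hairpins together (-0.11). Taken singly, Ccne1, Ccne2 and Ccnd3 were called with shMed4 #4 (-0.22, -0.18 and -0.17) and not with shMed4 #1 (-0.15, -0.13 and -0.04). The other CDK inhibitor genes measured, Cdkn2d and Cdkn3, were not called (-0.03 and -0.05).

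Of 14 Rb family and E2F genes, none rose and 8 fell (57.1%, near the 45.7% of all genes). E2f1, an activator of S-phase genes that lies on chromosome 2, held 3021, 3066 and 3442 normalised reads with shMed4 #1, 3136, 3614 and 3875 with shMed4 #4, and 3985, 4191 and 4294 in NTC. Every hairpin library lay below NTC (log2 fold -0.31, limma adjusted p = 1.7e-06). E2f4, which works with the Rb relatives in resting cells, fell by 0.28 at a peak shared with Exoc3l. E2f2 fell by 0.26, Rbl2 (p130) by 0.21, Lin52 by 0.17 at a peak shared with Aldh6a1, and E2f7 by 0.16. Rbl2 and E2f7 were called with shMed4 #4 (-0.32 and -0.24) and not with shMed4 #1 (-0.09 and -0.08). Lin52 was called with shMed4 #1 (-0.26) and not with shMed4 #4 (-0.08).

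Of 10 genes of p53 and its regulators, none rose and 4 fell, 40% beside 45.7% of all genes. The start of Trp53 itself, shared with Wrap53, held 1107, 1101 and 1127 normalised reads with shMed4 #1, 955, 1035 and 1085 with shMed4 #4, and 1123, 1155 and 1171 in NTC. It was not called with both hairpins together (log2 fold -0.11, limma adjusted p = 0.066). Taken singly, it fell with shMed4 #4 (-0.17, limma adjusted p = 0.015) and was not called with shMed4 #1 (-0.05, limma adjusted p = 0.5). Mdm2 and Mdm4, the main inhibitors of p53, fell by 0.18 each, the phosphatase gene Ppm1d by 0.2 and the checkpoint kinase gene Chek1 by 0.15. Mdm2, Mdm4 and Ppm1d were called with shMed4 #4 (-0.31, -0.26 and -0.29) and not with shMed4 #1 (-0.06, -0.09 and -0.1). Chek1 was called with shMed4 #1 (-0.17) and not with shMed4 #4 (-0.12). None of the 10 was called with both hairpins taken singly in the same direction, against 27.2% of genes lower and 6.32% higher. With shMed4 #1 none rose and 2 fell (9.59% and 37% of genes), and with shMed4 #4 none rose and 6 fell (9.72% and 44.5%).

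Among 25 further p53 target genes measured, 1 rose and 11 fell (4% and 44%), beside 9.98% and 45.7% of all genes. The riser was Xpc, the damage sensor of global nucleotide excision repair, at a peak shared with Tmem43. It held 2425, 2461 and 2466 normalised reads with shMed4 #1, 2362, 2520 and 2454 with shMed4 #4, and 2204, 2144 and 2130 in NTC (log2 fold 0.18, limma adjusted p = 0.00033). Its hairpin libraries were all above NTC. The largest falls were at the apoptosome gene Apaf1 (-0.28, at a peak shared with Ikbip), the death receptor gene Fas (-0.26) and the autophagy gene Dram1 (-0.25). The Fas fall was called with shMed4 #1 (-0.44) and not with shMed4 #4 (-0.09), a difference of 0.35 between hairpins (limma adjusted p = 5.4e-06). Smaller falls were called at Polh (-0.13, shared with Xpo5), Fdxr (-0.14) and the antiproliferative gene Btg2 (-0.14). Polh, Fdxr and Btg2 were called with shMed4 #4 (-0.2, -0.22 and -0.21) and not with shMed4 #1 (-0.06, -0.07 and -0.06).

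**Figure D5:**
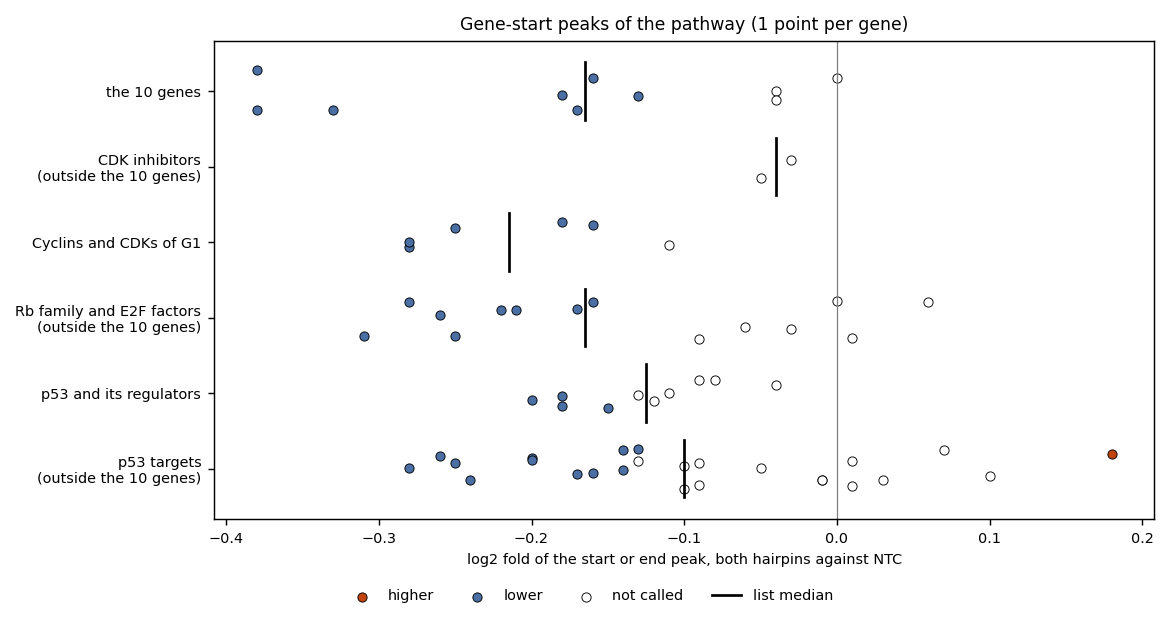
Log2 fold of the start or end peak of each gene (x axis), both hairpins against NTC, for the 10 genes and 5 lists of the same pathway (rows); each point is 1 gene and the black bar is the list median. Most points lie between -0.4 and 0.1, and Xpc is the single filled point above 0.

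Set against each other, the hairpins gave 21 member peaks higher and 24 lower with shMed4 #4 than with shMed4 #1, where 41.6% of all peaks were called (20.4% higher and 21.2% lower). Over whole loci, Rbl1 (0.36), Ddb2 (0.17) and Cdkn2b (0.15) were higher with shMed4 #4, and Sesn1 (-0.23), Cdkn2a (-0.09) and Ccnd1 (-0.09) were lower, while 22.5% and 30.3% of all loci were called. For Ccnd1 the call was lost centred on gene ends (-0.05), centred away from them (-0.11) and in the gene body alone (-0.06). For Cdkn2a it was lost centred on gene ends (-0.05) or away from them (-0.11), and without shMed4 #1 replicate 1, shMed4 #1 replicate 3 or shMed4 #4 replicate 1. Within 10 kb of Cdkn2a the difference was 0.19, in the other direction, and for Cdkn2b the mean of log2 values over peaks gave -0.19 in place of 0.15. At 4 peaks the hairpins moved in opposite directions from NTC, as 3.17% of all peaks did.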

How the data were processed

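The authors deposited a signal per peak, namely read counts in 1 common peak set normalised with DESeq2, as the deposited table's name says. The tools featureCounts, Subread, MACS2, BWA and Trim Galore are listed in the submitters' processing notes without versions, with the build GRCm38 (mm10). Pooling of libraries before peak calling is not stated. Peak coordinates are printed as deposited (501 bases wide), and no source says if counting starts at 0.

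From these values, log2(value + 1) was tested with limma 3.58.1 (R 4.3.3, lmFit and eBayes with a trend) in 1 fit over 9 libraries. It covered 146729 peaks whose mean reached 10 (5 left out). The hairpin groups were compared with NTC as their mean and singly, and with each other. A peak was called where its Benjamini-Hochberg adjusted p over all peaks was under 0.05. Locus sums used the same model, and locus p-values were adjusted over all protein-coding loci. Gene-start peaks were read from the peak fit. They were the highest peak of each gene within 1 kb of a start, or of either end where no strand is given. Gene positions and promoters are RefSeq, GRCm38.p6, and all 65 pathway genes were matched. The test was also run on simulated reads in which few peaks changed, with no regional shift and no change of scale. That run cannot check the calls against scaling or regional shifts. Depth of 44.8 to 98.9 M reads in peaks was read from the step of 1 read in each column.

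The named peaks were the start peak, the lowest-p peak and the highest peak of each member, the 4 highest and 4 lowest log2 folds called with each hairpin, and the 4 lowest p between hairpins, with a mean of at least 50 where ranked. In each pathway list the 3 highest and 3 lowest called genes were named, with Trp53, Mdm2, Rbl2, Cdk4 and Cdk6. The members and lists were chosen with earlier results of these data known. Replicate numbers were checked for pairing and do not pair the libraries. Alternatives changed the pseudocount, the filter, the scaling, the window, the summary of a locus, the libraries in the fit and the replicate block. A count-model test was planned and not run, since the deposited values are normalised. The check of the step of 1 read did not accept whole reads as recovered in most columns. That step was therefore used only for depth and for the likeness of library pairs. A leukocyte marker of the list is not reported here. Figures were drawn with matplotlib 3.10.9.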

Additional observations from a re-analysis of the deposited data

Results flagged for a closer look

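At 4 peaks the hairpins moved in opposite directions from NTC, each past the threshold, and the difference between hairpins itself passed limma's test over all peaks. The first, near Rb1 on chromosome 14 at 73293572, held 125, 115 and 108 normalised reads with shMed4 #1, 276, 272 and 245 with shMed4 #4, and 133, 194 and 146 in NTC, a difference of 1.18 between shMed4 #4 and shMed4 #1 on the log2 scale. Near Cdkn2a on chromosome 4, the peak at 89254741 differed by -0.75. The neighbouring one at 89257640 held 2269, 2166 and 2401 with shMed4 #1, 1661, 1729 and 1744 with shMed4 #4, and 2090, 2019 and 2022 in NTC, a difference of -0.41. Near Ccnd1 on chromosome 7, the peak at 144921616 differed by -1.29. At all 4 peaks the NTC libraries lay between those of the 2 hairpins. With shMed4 #1 at 89254741 the call was lost when values were centred away from gene ends (0.14) or on peaks within 1 Mb (0.19), and with shMed4 #4 at 144921616 it was lost when centred on gene ends (-0.27).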

How the results depend on the processing

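Centred on gene-end peaks, 37 member peaks fell with both hairpins (34 with shMed4 #4), 21 fell with each hairpin, 2 loci rose and 4 fell with both hairpins, 2 rose with shMed4 #1, 3 rose and 3 fell with shMed4 #4, and 1 was lower with shMed4 #4 than with shMed4 #1. At the members' starts or ends 3 fell. Of the pathway genes, 4 rose and 14 fell, with a median of -0.05. Centred away from gene ends, 9 peaks rose with shMed4 #1 and 4 with each hairpin, 0 loci rose with both hairpins or with either, 1 was lower between hairpins, and 0 pathway genes rose and 44 fell (median -0.23). Centred on peaks within 1 Mb, 13 member peaks were higher with shMed4 #4 than with shMed4 #1.

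A window of 10 kb held 69 peaks and the gene body alone 41, so counts fell by construction. Within 10 kb, higher and lower counts were 35 lower with both hairpins, 9 and 32 with shMed4 #1, 7 and 33 with shMed4 #4, 4 and 22 with each, and 11 higher between hairpins. In the body they were 4 and 19, 5 and 17, 4 and 19, 2 and 11, and 7 and 12 in the same order, and 1 locus was higher between hairpins. With the mean of log2 values over peaks, 0 loci rose with shMed4 #4 and 5 were lower between hairpins.

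Leaving out 1 library at a time gave 0 to 1 loci higher with shMed4 #4, 4 to 7 member starts or ends lower, 1 to 3 pathway genes higher, 18 to 35 lower, and a pathway median of -0.15 to -0.09. With the replicate block, 12 member peaks rose and 61 fell, 8 and 36 with each hairpin, 1 locus rose and 7 fell, 7 member starts or ends fell, and 1 pathway gene rose and 33 fell. Same-numbered libraries did not deviate together (correlations of -0.0109 to 0.0727), so the numbers do not pair them.

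Single values changed sign 49 times, 37 of them called in neither fit, and the cause was not tested. Centred on gene ends, Cdkn1a gave 0.02 with both hairpins, 0.04 with shMed4 #1 and 0.01 with shMed4 #4, Cdkn1b 0.09 with shMed4 #4 and 0.01 between hairpins, Cdkn2a 0.01 with both and 0.03 with shMed4 #1, Cdkn2b 0.09 and Rbl1 0.01 with shMed4 #4. The peaks at 29093447 (0.08), 157203785 with shMed4 #4 (0.08), 89294451 (0.04), 89310846 (0.03) and 134928421 (0.05) also turned. Centred away, Cdkn1b gave -0.09 with both and -0.06 with shMed4 #1, and Rb1 -0.03 with shMed4 #4. With equal totals Cdkn1b gave 0 with both and 0 with shMed4 #1. Within 10 kb, Cdkn1b gave -0.03, -0.04 and 0.02 (both, shMed4 #1, between hairpins) and Cdkn2a 0.01 with shMed4 #4 and 0.19 between hairpins. In the body, Cdkn1b gave 0.01 and Rbl1 0.07 with shMed4 #4, and Cdkn2a 0.37 with shMed4 #1. With the mean of log2 values, Cdkn1a gave 0.04, 0, 0.08 and 0.08 (both, shMed4 #1, shMed4 #4, between hairpins), Cdkn1b 0.03 with shMed4 #4 and 0 between hairpins, Cdkn2a 0.08 and Cdkn2b 0.02 with shMed4 #1, and Cdkn2b -0.19 between hairpins. Centred within 1 Mb, the peak at 157170206 gave 0.1. Without 1 library at a time, Cdkn1a gave -0.04 to 0 with shMed4 #1, Cdkn1b -0.02 to 0.02 and Cdkn2b -0.02 to 0.02 with shMed4 #4, the peak at 29093447 gave -0.04 to 0.06 and that at 157203785 gave -0.06 to 0.03 with shMed4 #4. Of the other comparisons of single loci and peaks with their main value, 1362 kept direction and side of the threshold, 67 lost a call and 30 gained one.

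The planned edgeR and DESeq2 fits were not run, because the deposited values are normalised and whole reads were not accepted as recovered in most columns.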
